A study of Mus musculus with 18 samples.

Results

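The cytochrome P450 genes described here are the rows whose symbol is Cyp followed by a family number, a subfamily letter and a member number, a rule that leaves out Cyp51. It found 92 of the 27131 rows, in 39 subfamilies. Polyadenylated RNA had been measured in the colon of untreated C57BL/6 mice, in 9 libraries with the genotype Hif2a +/+ (WT) and 9 with an altered Hif2a allele (HIF2). The allele is written Hif2a LFL with the samples and Hif2a LSL in the design text, and the mice are described as overexpressing HIF2 in the colon. The sources used here do not give the driver of the allele, the age or sex of the mice, or whether each library came from its own mouse, and p-values therefore reflect only how much these libraries vary. Libraries are named by group and replicate number, 0 to 8.

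P450 enzymes are haem proteins that insert an oxygen atom into a substrate, with electrons passed on by P450 reductase in the endoplasmic reticulum or by ferredoxin in mitochondria. The Cyp1, Cyp2 and Cyp3 families are best known for oxidising drugs and food compounds, the Cyp4 family for hydroxylating fatty acids and eicosanoids at or near the chain end, and the remaining families for making or clearing sterols, bile acids, steroid hormones, vitamin D and retinoic acid. Gut epithelium meets ingested compounds before the liver does. HIF-2α, the hypoxia-inducible factor encoded by Epas1, pairs with Arnt, which is also the partner of the aryl hydrocarbon receptor Ahr.

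Several features of the libraries touch the values below. The columns of FPKM, fragments scaled by transcript length and library size, summed to between 686539 and 937505. Read depth is unknown, so no counting interval was computed. Epas1 did not pass the test, with medians of 18.5 FPKM (WT) and 20.4 FPKM (HIF2) and a log2 difference of 0.24 (SE 0.14, limma adjusted p = 0.246). The libraries labelled HIF2 replicates 2 and 4 had Slc11a2, an iron transporter gene known as a HIF-2α target, at 16.5 and 18.2 FPKM, inside the WT range of 12.8 to 19.0. The other HIF2 libraries had it at 229 to 2100 FPKM. Smooth muscle markers averaged 3.37 to 4.54 above the WT mean on the log2 scale in HIF2 replicates 0 to 5, 3.14 in WT replicate 3, and -0.59 to 0.65 in HIF2 replicates 6 to 8. The subsets of HIF2 replicates used below follow these measured markers, so results within them describe the libraries and are not tests. Ddx3y, on the Y chromosome, was under 1 FPKM in HIF2 replicates 3, 6, 7 and 8 and WT replicates 5 to 8.

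Of the 92 genes, 32 had a mean of at least 1 FPKM over the 18 libraries and were tested on log2(FPKM + 1), with p-values adjusted over all 13976 genes tested. In HIF2, 7 of the 32 were lower, or 21.9%, and 11.1% of all genes tested were lower. The 2 that were higher made up 6.25%, against 11.0% of all genes. Cyp4b1, Cyp3a25, Cyp2c55, Cyp4f14, Cyp4f13, Cyp3a13 and Cyp4v3 fell, and Cyp2d26 and Cyp2s1 rose. The median log2 difference was -0.05 over the tested P450 genes and -0.02 over all genes. Cyp3a25 entered the test only through its level in WT and Cyp2d11 only through HIF2. Of the 30 P450 genes with a mean of at least 1 FPKM in both groups, 6 were lower and 2 higher, beside 11.7% and 7.97% of all such genes. An exact permutation test adjusted over the same 13976 genes kept each of these calls except that of Cyp2c55 and added none. The ranges of the groups did not overlap for 2 of the 32, Cyp4f14 and Cyp3a25, and for 2.02% of all genes.

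**Figure D1:**
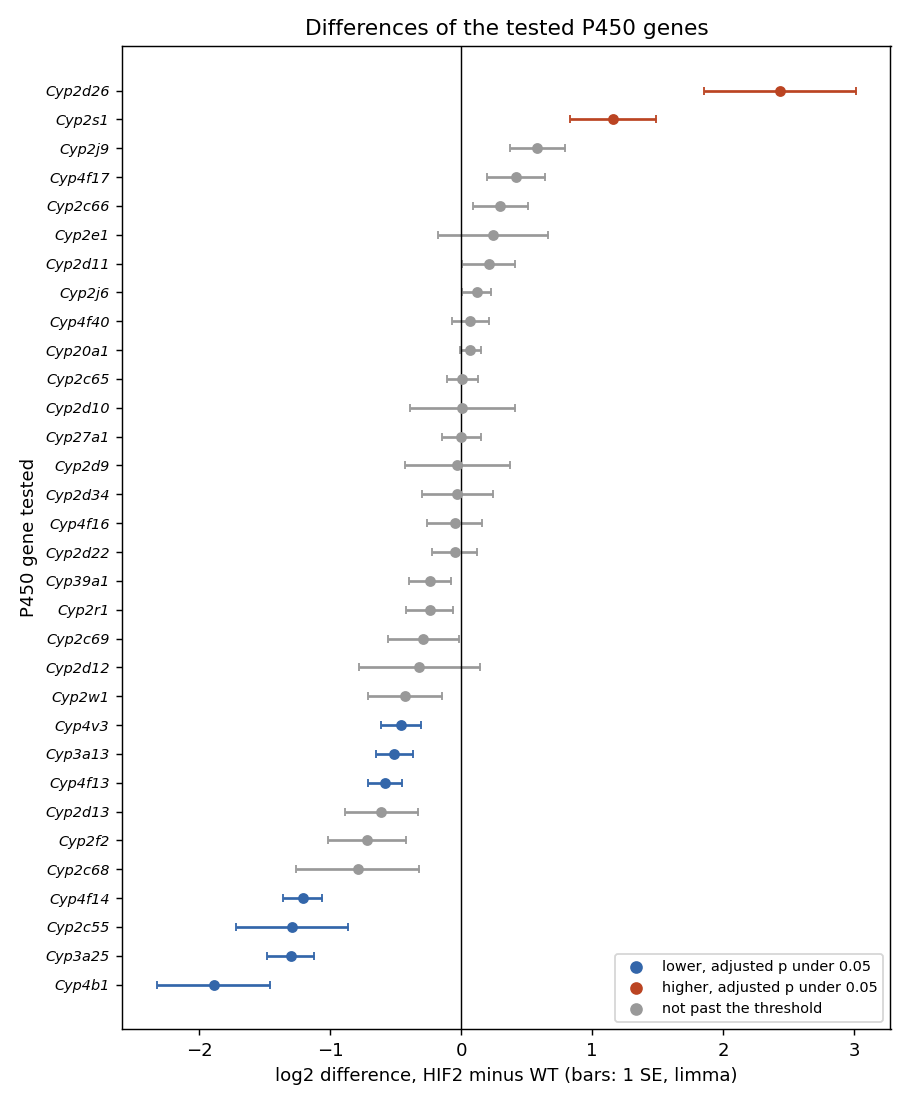
The 32 tested P450 genes are ordered by log2 difference in HIF2 minus WT on the horizontal axis, with bars of 1 SE from limma and 9 libraries a group. The 7 genes in blue fell, from -0.46 for Cyp4v3 to -1.89 for Cyp4b1, the 2 in red rose, and the 23 in grey did not pass the threshold.

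In WT the family's RNA was mostly that of a single gene. Summed over all members, P450 FPKM had a lowest, median and highest value of 1640, 2700 and 3760 in WT and of 797, 1680 and 2920 in HIF2. Cyp2c55 made up 53.1% to 80.2% of that sum in WT, with a median of 70.4%, and 19.0% to 79.2% in HIF2, with a median of 51.4%. With Cyp2c55 left out the sums were 641, 745 and 825 in WT and 573, 747 and 1280 in HIF2, so the medians of the remainder lay side by side while its range was wider in HIF2. These are levels with no test, and in whole tissue fewer cells of a type and less RNA per cell cannot be told apart.

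The sequence at the RefSeq start of 4 of the genes that passed the test is printed because they moved in opposite directions and differ in the short motifs they hold. Each is the 250 bases before the RefSeq start of the gene (build GRCm38.p6), 5′ to 3′ on the gene's own strand. GENCODE starts differ: by that annotation the Cyp2s1 window lies wholly inside the gene, and the Cyp2d26 and Cyp4v3 windows overlap the first bases of theirs. Capitals mark ACGTG and GCGTG on either strand, the cores bound by HIF and Arnt dimers (GCGTG is also the core of the aryl hydrocarbon receptor site), and TATAA on the gene's strand. The windows are chr15:82794246-82794495 (minus strand) for Cyp2d26, chr7:25816526-25816775 (minus) for Cyp2s1, chr19:39006769-39007018 (plus) for Cyp2c55 and chr8:45333164-45333413 (minus) for Cyp4v3.
Cyp2d26: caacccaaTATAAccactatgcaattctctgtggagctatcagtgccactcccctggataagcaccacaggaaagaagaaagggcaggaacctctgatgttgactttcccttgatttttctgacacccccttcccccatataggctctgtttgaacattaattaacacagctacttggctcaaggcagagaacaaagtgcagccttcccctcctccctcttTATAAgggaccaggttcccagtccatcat
Cyp2s1: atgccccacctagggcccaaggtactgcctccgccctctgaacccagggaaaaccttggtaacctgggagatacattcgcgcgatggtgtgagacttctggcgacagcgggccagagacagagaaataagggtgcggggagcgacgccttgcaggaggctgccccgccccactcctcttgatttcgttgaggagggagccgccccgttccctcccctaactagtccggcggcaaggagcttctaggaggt
Cyp2c55: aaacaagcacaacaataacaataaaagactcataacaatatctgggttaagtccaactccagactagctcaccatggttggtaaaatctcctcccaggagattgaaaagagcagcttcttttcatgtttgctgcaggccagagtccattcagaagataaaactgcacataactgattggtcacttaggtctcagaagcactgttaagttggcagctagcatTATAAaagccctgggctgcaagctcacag
Cyp4v3: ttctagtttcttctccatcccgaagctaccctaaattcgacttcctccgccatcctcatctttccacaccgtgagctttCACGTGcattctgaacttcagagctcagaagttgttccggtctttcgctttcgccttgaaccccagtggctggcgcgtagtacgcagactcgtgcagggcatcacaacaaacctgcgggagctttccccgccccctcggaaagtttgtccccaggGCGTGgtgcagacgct
The windows of Cyp2d26 and Cyp2s1, which rose, held neither ACGTG nor GCGTG, and for Cyp2s1 this leaves the bases before its GENCODE start unread. Cyp4v3, which fell, held the palindrome CACGTG, read as ACGTG on both strands, and GCGTG. Cyp2d26 held TATAA at 2 places and Cyp2c55 at 1 place, each with a copy close to the start, while Cyp2s1 and Cyp4v3 had none. Among the 81 windows of 71 P450 genes, 23.5% held ACGTG or GCGTG, against 38.6% of all 32851 windows of this length. TATAA stood in 43.2% of the P450 windows and in 16.0% of all. Among the 13 windows of the 9 genes that passed the test, 2 held either core, the Cyp4v3 window and 1 of several windows of Cyp4f14. A match is a description of letters, and the absence of one says only that these letters are not in these bases.

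The Cyp2c genes lie in a cluster on chromosome 19. Cyp2c55 (39007019 to 39042693) encodes an arachidonic acid hydroxylase known to be abundant in mouse colon, and was the highest P450 gene in WT. Its lowest, median and highest values were 873, 1900 and 3020 FPKM in WT and 224, 697 and 2210 in HIF2. HIF2 replicates 2, 3 and 4, at 2210, 2170 and 1830, lay inside the WT range, and the other 6 HIF2 libraries, from 224 to 864, lay below it. Cyp2c55 fell, with a log2 difference of -1.29 (SE 0.43, limma adjusted p = 0.0363). The call was lost in 17 of 35 other settings, which include the subsets of HIF2 replicates. It did not pass the exact rank test (adjusted p = 0.0924) or the exact permutation test (adjusted p = 0.0566). Replicates 2 and 4 are the libraries with WT-level Slc11a2, while replicate 3 had Slc11a2 at 246 FPKM.

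Its neighbour Cyp2c65 (39061015 to 39093944), whose product also acts on arachidonic acid, was level between the groups. Its values were 87.5, 145 and 176 FPKM in WT and 104, 140 and 176 in HIF2, with all 9 HIF2 libraries inside the WT range (log2 difference 0.01, SE 0.12, limma adjusted p = 0.955). The log2 ratio of Cyp2c55 to Cyp2c65 within a library, a pair chosen after its values were seen, had a mean of 3.75 in WT and 2.45 in HIF2. The difference was -1.30, and a pair chosen in this way allows no test. Cyp2c68 (39688834 to 39741054) was 10.7, 33.6 and 37.8 FPKM in WT and 0.493, 21.8 and 28.0 in HIF2, and did not pass (-0.79, SE 0.47, limma adjusted p = 0.255). Every HIF2 library was below the WT median and 8 of the 9 were inside the WT range. In the annotated transcripts, 43.3% of the 50-base words of Cyp2c68 and 20.2% of those of Cyp2c65 occur in another P450 gene, so their reads may be split between copies. Only 0.514% of the words of Cyp2c55 do. The low Cyp2c66 and Cyp2c69, at medians of 2.16 and 3.03 FPKM in WT and 2.86 and 1.56 in HIF2, did not pass. Those were the 5 tested of 15 Cyp2c genes.

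Genes of the fatty acid hydroxylase family Cyp4 supplied 4 of the 7 that fell. These were 2 of the 5 tested Cyp4f genes and the only tested genes of Cyp4b and Cyp4v, beside 11.1% lower of all genes tested. Cyp4f14 (chromosome 17, 32905070 to 32917342), which encodes a leukotriene B4 hydroxylase that also acts on vitamin E, had a mean of 39.6 ± 12.0 FPKM in HIF2 against 90.0 ± 13.0 in WT (SD over 9 libraries each). Its lowest, median and highest values were 76.0, 86.5 and 118 in WT and 23.0, 40.3 and 57.5 in HIF2. All 9 HIF2 libraries lay below all 9 WT libraries, replicates 2 and 4 among them at 44.5 and 57.5 FPKM. The log2 difference was -1.21 (SE 0.15, limma adjusted p = 4.53e-05), and it stayed between -1.33 and -1.13 in every setting tried.

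Other genes of the Cyp4f cluster on chromosome 17 did not share that size of difference. Cyp4f13 (32924688 to 32947402) lies next to Cyp4f14 and was 21.7, 26.2 and 31.5 FPKM in WT and 9.22, 17.5 and 24.7 in HIF2. It fell by 0.58 on the log2 scale (SE 0.13, limma adjusted p = 0.00413), with 8 of the 9 HIF2 libraries below the WT range. It did not pass with a smooth muscle covariate (-0.41, limma adjusted p = 0.11) or in HIF2 replicates 6 to 8 (-0.35, limma adjusted p = 0.0942). Cyp4f40 (32658900 to 32676914) was 18.3, 24.8 and 34.6 FPKM in WT and 21.8, 23.7 and 45.5 in HIF2 (0.07, SE 0.14, limma adjusted p = 0.783). The log2 ratio of Cyp4f14 to Cyp4f40, again a pair chosen after its values were seen, was 1.30 to 2.14 in WT and -0.36 to 1.27 in HIF2. Its mean differed by -1.28, and this choice of pair allows no test. Cyp4f16 (32536558 to 32551798) was 20.6, 27.9 and 35.2 FPKM in WT and 14.4, 21.9 and 56.8 in HIF2 and did not pass (-0.05, SE 0.21, limma adjusted p = 0.889). Its 6 HIF2 libraries numbered 0 to 5 read 14.4 to 23.6 and the 3 numbered 6 to 8 read 36.1 to 56.8. The log2 difference from WT was -0.43 in the former and 0.65 in the latter, which were set against WT without replicate 3. The split follows measured values and allows no test. Of its words, 17.4% occur in another P450 gene, and for Cyp4f14 the share is 2.39%. Cyp4f17, the fifth tested of 8 Cyp4f genes, was at medians of 0.989 and 2.36 FPKM in WT and HIF2 and did not pass.

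Cyp4b1 (chromosome 4, 115624725 to 115647723), known for hydroxylating fatty acids and for activating plant toxins in lung, had the largest fall on this scale. It was 8.90, 16.6 and 48.1 FPKM in WT and 0.282, 6.20 and 10.2 in HIF2. The 3 lowest were HIF2 replicates 7, 6 and 0, at 0.282, 0.721 and 1.02 FPKM, and replicates 2 and 3, at 9.09 and 10.2, reached the bottom of the WT range. The log2 difference was -1.89 (SE 0.43, limma adjusted p = 0.0044), with all 9 HIF2 libraries below the WT median. WT replicate 3 gave the highest value, and that library also had raised smooth muscle markers and small intestinal markers, at 3.14 and 1.14 above the WT mean on the log2 scale. HIF2 replicates 0 to 5, with smooth muscle markers at 3.37 to 4.54, read 1.02 to 10.2 FPKM. The part of these cells in the values of Cyp4b1 was not tested. Cyp4v3, on chromosome 8 (45304944 to 45333216), the counterpart of the human fatty acid hydroxylase gene mutated in Bietti crystalline dystrophy, was 5.74, 6.63 and 14.9 FPKM in WT and 3.94, 4.89 and 7.85 in HIF2. It fell by 0.46 (SE 0.15, limma adjusted p = 0.04), and lost the call in 15 of 35 settings, leaving out WT replicate 3 (-0.35, limma adjusted p = 0.0514) among them.

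**Figure D2:**
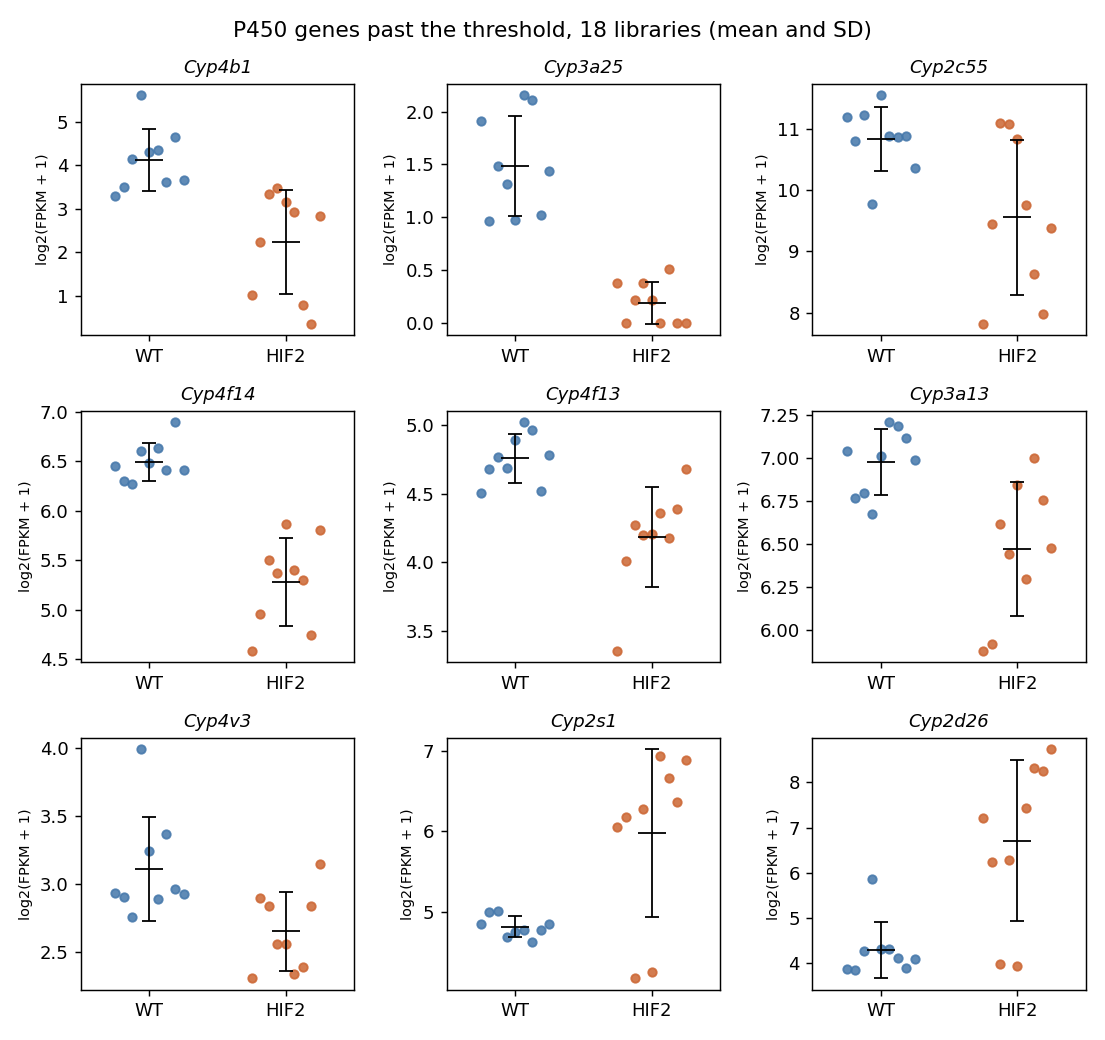
Each panel gives log2(FPKM + 1) of 1 P450 gene past the threshold in 9 WT (blue) and 9 HIF2 (orange) libraries, with the mean and SD in black, and the vertical axes differ and do not start at 0. Cyp3a25 and Cyp4f14 show no overlap, while for Cyp2s1 and Cyp2d26 the HIF2 points fall into 7 above the WT points and 2 at or under them.

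The Cyp3a genes form the main drug-oxidising subfamily of gut and liver, and 2 of 7 were tested. Cyp3a13 (chromosome 5, 137892932 to 137921619), an intestinal form, was 101, 128 and 147 FPKM in WT and 57.7, 88.1 and 127 in HIF2. Every HIF2 library was below the WT median and 3 were inside the WT range, and it fell, with a log2 difference of -0.51 (SE 0.14, limma adjusted p = 0.0131). With a smooth muscle covariate that difference was -0.29 (limma adjusted p = 0.282). Cyp3a25 (chromosome 5, 145977194 to 146009618) was far lower, at 0.956, 1.70 and 3.46 FPKM in WT and 0, 0.158 and 0.422 in HIF2, and was listed at 0 in 4 HIF2 libraries. The groups did not overlap, and the log2 difference was -1.30 (SE 0.18, limma adjusted p = 0.000122), a size that depends on the added 1 FPKM and was -3.19 with 0.1 FPKM added. Since the gene entered the test only through WT, where its mean was above 1 FPKM, it had to differ, and its call and lack of overlap support nothing further. Of its words, 26.8% occur in another P450 gene.

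A pair of Cyp3a genes beside it, Cyp3a11 (145854426 to 145879964) and Cyp3a44 (145773983 to 145805874), missed the level needed for the test. Cyp3a11, the inducible form and a target of the pregnane X receptor, was 0.318 to 4.44 FPKM in WT and 0 to 0.26 in HIF2, listed at 0 in 6 of the 9 HIF2 libraries. No HIF2 library reached the lowest WT value. Cyp3a44 was 0 to 3.74 FPKM in WT and 0 to 0.158 in HIF2. Cyp2b10, a target of the constitutive androstane receptor on chromosome 7, likewise read 0.147 to 1.85 FPKM in WT and 0 to 0.698 in HIF2. When all genes above 0 were fitted without a level filter, these 3 were lower, with log2 differences of -1.36, -0.87 and -0.67 (limma adjusted p = 0.00025, 0.0198 and 0.0134). That fit held 76 P450 genes, of which 8 were lower, against 6.83% of all genes in it, and 4 higher, against 10.6%. Besides Cyp2d26 and Cyp2s1 the higher ones were Cyp7b1, an oxysterol hydroxylase, at 0 to 0.152 FPKM in WT and 0 to 3.15 in HIF2 (0.80, limma adjusted p = 0.00879), and Cyp26b1, which clears retinoic acid, at 0 to 0.342 and 0.12 to 2.22 FPKM (0.46, limma adjusted p = 0.0495). Cyp7b1 read 0.706 to 3.15 FPKM in HIF2 replicates 0 to 5, the libraries with raised smooth muscle and fibroblast markers, and 0 to 0.48 in replicates 6 to 8. The part of those cells in its difference was not tested.

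Cyp2d26 (chromosome 15, 82790101 to 82794294) had the largest rise, in a subfamily best known for drug oxidation in liver. Its WT values were 13.3, 16.4 and 56.8 FPKM at the lowest, median and highest, the last in WT replicate 3, with the other 8 WT libraries at 18.8 or less. In HIF2 replicates 0 to 8 in turn it was 147, 74.0, 14.8, 77.4, 14.2, 173, 320, 305 and 424 FPKM. Thus 7 HIF2 libraries exceeded all WT libraries and 2 did not. The log2 difference was 2.43 (SE 0.58, limma adjusted p = 0.00582, exact permutation adjusted p = 0.0186). It was 1.57 in HIF2 replicates 0 to 5, replicates 2 and 4 among them, against all 9 WT libraries. In replicates 6 to 8 it was 4.35 against 8 WT libraries without WT replicate 3. These 2 values therefore have unlike references.

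Cyp2s1 (chromosome 7, 25802475 to 25816913), a gene of surface epithelia that responds to the aryl hydrocarbon receptor, split the same libraries. It was 23.7, 26.5 and 31.4 FPKM in WT. In HIF2 replicates 0 to 8 in turn it read 65.4, 71.3, 17.1, 76.9, 18.1, 121, 100, 81.5 and 117 FPKM. No HIF2 library lay inside the WT range, since 7 were above it and 2 below. The log2 difference was 1.16 (SE 0.33, limma adjusted p = 0.0152, exact permutation adjusted p = 0.0276). With HIF2 replicates 0 to 5 against 9 WT libraries it was 0.83, and this subset allows no test. None of the 50-base words of Cyp2s1 and 9.49% of those of Cyp2d26 occur in another P450 gene.

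The 2 HIF2 libraries that did not rise were the same for both genes, replicates 2 and 4, and they are the libraries with Slc11a2 in the WT range. Egln3, which encodes a HIF prolyl hydroxylase and is a known HIF target, was also low there, at 21.8 and 16.7 FPKM against a WT range of 11.4 to 22.2 and 225 to 549 in the other HIF2 libraries. Leaving both out selects libraries by their measured values and so allows no test. Without them the log2 difference was 3.22 for Cyp2d26 and 1.66 for Cyp2s1. Among the genes that fell, Cyp2c55 in replicates 2 and 4 lay inside the WT range, and its difference without them was -1.69. Cyp4b1 in replicates 2, 3 and 4, at 9.09, 10.2 and 7.98 FPKM, had its 3 highest HIF2 values, and without replicates 2 and 4 it was -2.18. Cyp4f14 read 44.5 and 57.5 FPKM in replicates 2 and 4, below all WT libraries, and Cyp3a25 read 0.158 and 0.162. The log2 differences of Cyp4f14 and Cyp3a25 without these libraries were -1.33 and -1.31. Smooth muscle markers in replicates 2 and 4, at 4.41 and 4.21 above the WT mean on the log2 scale, were as high as in the other HIF2 libraries numbered below 6.

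**Figure D3:**
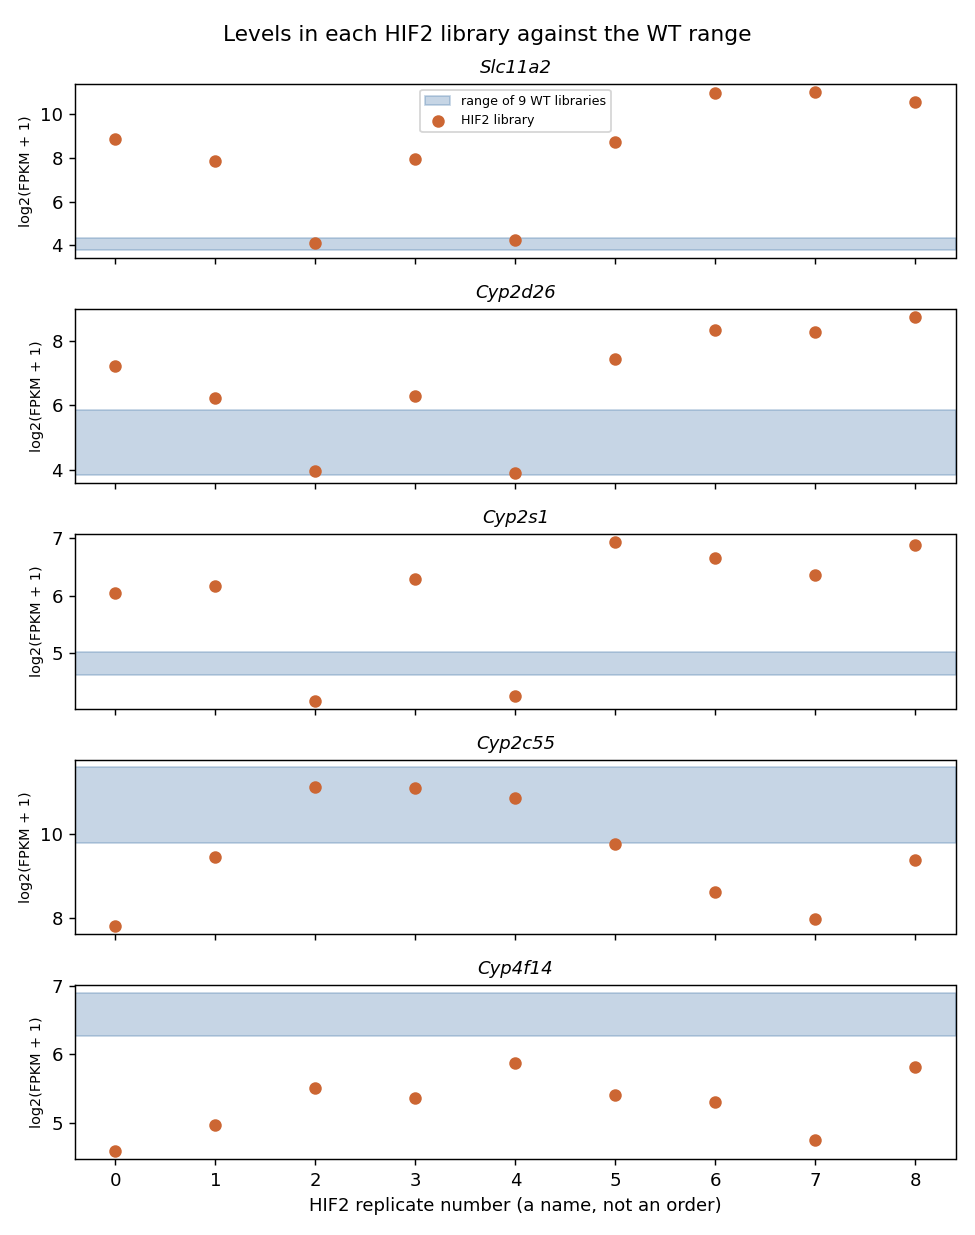
Each panel gives log2(FPKM + 1) in the 9 HIF2 libraries, by replicate number, over a band spanning the 9 WT libraries, with axes that do not start at 0. Slc11a2, Cyp2d26 and Cyp2s1 rise above the band in all but replicates 2 and 4, Cyp2c55 lies inside it in replicates 2, 3 and 4, and Cyp4f14 lies below it in all 9.

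Cyp2d26 differed from the rest of its cluster on chromosome 15. Of 9 Cyp2d genes 8 were tested, and in the test of all 18 libraries only Cyp2d26 passed. In HIF2 replicates 6 to 8 against 8 WT libraries, the log2 difference was 1.08 for Cyp2d10 and 0.77 for Cyp2d34. Those HIF2 libraries all had Ddx3y under 1 FPKM, as had only 4 of the 8 WT libraries. Both genes were higher in WT libraries low in Ddx3y, so group and this property cannot be told apart there. Cyp2d34 (82615965 to 82620946), the highest of the others, was 41.2, 65.4 and 93.6 FPKM in WT and 23.4, 64.8 and 141 in HIF2 (-0.03, SE 0.27, limma adjusted p = 0.962). The log2 ratio of Cyp2d26 to Cyp2d34 rose by 2.46 from a mean of -1.81 in WT to 0.65 in HIF2. This pair too was chosen after its values were seen, which allows no test. Cyp2d10 (82402846 to 82407195) was 4.55, 11.4 and 23.8 FPKM in WT and 2.01, 9.07 and 28.9 in HIF2 (0.01, SE 0.40, limma adjusted p = 0.996). Cyp2d9 (82433437 to 82456845) was 3.14, 9.38 and 17.3 FPKM in WT and 1.53, 9.19 and 28.3 in HIF2 (-0.03, SE 0.40, limma adjusted p = 0.971). Cyp2d12 (82555072 to 82560403) was 3.25, 8.54 and 19.4 FPKM in WT and 0.34, 7.03 and 22.9 in HIF2 (-0.32, SE 0.46, limma adjusted p = 0.677). For these 4 the difference was smaller than its own standard error, while the values within a group spread several-fold. The other 3, Cyp2d13, Cyp2d22 and Cyp2d11, had medians of 9.89, 5.15 and 0.886 FPKM in WT and 6.26, 4.96 and 0.976 in HIF2, and none passed (limma adjusted p = 0.125, 0.875 and 0.523). Cyp2d10 shares 35.2% of its words with other P450 genes and Cyp2d9 16.7%, and Cyp2d26, Cyp2d34, Cyp2d12 and Cyp2d22 between 4.13% and 9.49%, so reads of all these genes may in part be split between copies.

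Within WT that spread followed Ddx3y. The 4 WT libraries with Ddx3y under 1 FPKM had Cyp2d10 at 16.1 to 23.8 FPKM, and the other 5 had it at 4.55 to 11.4. The corresponding ranges were 11.7 to 17.3 and 3.14 to 9.38 for Cyp2d9, 14.5 to 19.4 and 3.25 to 8.54 for Cyp2d12, 10.5 to 15.5 and 5.96 to 9.89 for Cyp2d13, and 80.0 to 93.6 and 41.2 to 65.4 for Cyp2d34. Cyp27a1, the mitochondrial sterol hydroxylase on chromosome 1 (74713574 to 74737892), was also higher in all 4, at 9.04 to 13.2 against 6.60 to 8.06 FPKM. Thus 6 of the 32 tested P450 genes were higher in each of these libraries than in any other WT library, as were 0.873% of all genes tested. Cyp2j9 alone was lower in each, at 0.675 to 1.22 against 1.65 to 2.36 FPKM, as were 0.615% of all genes. No P450 gene separated the HIF2 libraries by Ddx3y. HIF2 replicates 6 to 8 had high Cyp2d10 at 26.8 to 28.9 FPKM, but replicate 3, also low in Ddx3y, had 9.07, inside the range of 2.01 to 10.3 of the other 5. The labels give no sex, the pattern was noticed in these libraries and not tested, and WT replicates 5 to 8 cannot be told apart from any other property they share.

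**Figure D4:**
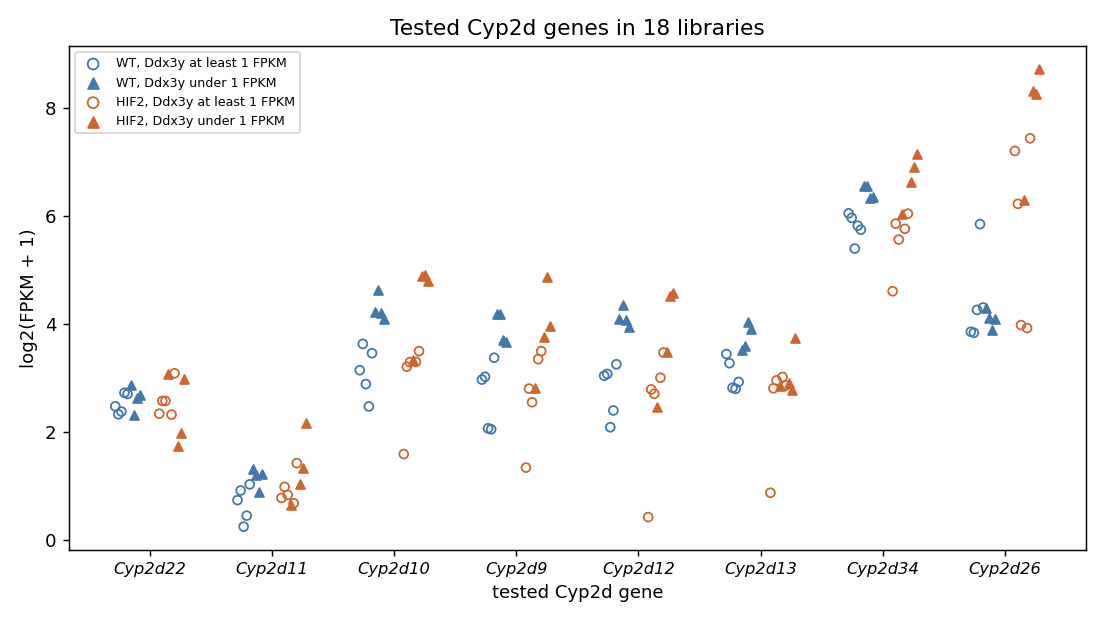
The 8 tested Cyp2d genes are shown as log2(FPKM + 1) in each library, with WT in blue and HIF2 in orange, and filled triangles for libraries with Ddx3y under 1 FPKM. In WT the triangles lie above the circles for Cyp2d10, Cyp2d9, Cyp2d12, Cyp2d13 and Cyp2d34, and Cyp2d26 stands apart in HIF2, where 7 libraries lie above all WT libraries.

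The remaining members at 10 FPKM or more did not pass. Cyp2j6 (chromosome 4, 96516138 to 96553661), of the arachidonic acid epoxygenase subfamily, was 20.8, 26.6 and 36.7 FPKM in WT and 24.3, 30.4 and 38.1 in HIF2 (0.12, SE 0.11, limma adjusted p = 0.513). Cyp20a1 (chromosome 1, 60343323 to 60388060), with no settled substrate, was among the least variable, at 11.4, 13.8 and 15.7 FPKM in WT and 10.7, 14.8 and 16.2 in HIF2 (0.07, SE 0.08, limma adjusted p = 0.631). Among lower members, Cyp2j9 came closest to the threshold, at medians of 1.65 and 2.36 FPKM in WT and HIF2 (0.58, SE 0.21, limma adjusted p = 0.0525). Cyp2f2, known from lung, was at 3.57 and 2.38 FPKM (-0.72, SE 0.30, limma adjusted p = 0.0946). Cyp2w1, a gene of fetal gut and colon tumours, was at 2.02 and 1.03 FPKM and ranged in HIF2 from 0 to 5.04 (-0.43, SE 0.28, limma adjusted p = 0.304). Cyp2e1, the ethanol-oxidising form, was at 1.73 and 3.53 FPKM (0.24, SE 0.42, limma adjusted p = 0.74). Its highest WT values, 4.52 and 6.93, were in replicates 2 and 3, where adipocyte markers averaged 1.11 and 0.95 above the WT mean on the log2 scale, and their part in it was not tested. Cyp2e1 ranged from 0.621 to 7.20 FPKM in HIF2 replicates 0 to 5 and from 0.307 to 0.941 in replicates 6 to 8.

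Members with defined roles in hormone, sterol and vitamin chemistry were low or near 0. Of 6 bile acid and oxysterol genes 2 were tested, Cyp27a1 at medians of 8.06 and 9.31 FPKM in WT and HIF2 and the oxysterol hydroxylase gene Cyp39a1 at 3.81 and 2.95, and neither passed (limma adjusted p = 0.991 and 0.302). Cyp7a1, which sets the rate of bile acid synthesis in liver, was listed at 0 in all 18 libraries. Of the vitamin D genes, Cyp2r1, a 25-hydroxylase, was tested at medians of 1.86 and 1.43 FPKM and did not pass (limma adjusted p = 0.387), and Cyp24a1, which degrades the hormone, was listed at 0 throughout. None of 6 steroid hormone genes and none of 3 retinoic acid genes reached the level for the test. The classical aryl hydrocarbon receptor targets stayed low too, with Cyp1a1 at 0.313 FPKM or less, Cyp1b1 at 0.653 or less and Cyp1a2 listed at 0 in every library, so Cyp2s1 was the 1 of 4 genes on that list that could be tested. In all, 60 members were not tested. Of these, 16 were listed at 0 in all libraries, and 3 had a mean of at least 1 FPKM in 1 group, Cyp3a11 and Cyp3a44 in WT and Cyp7b1 in HIF2. An FPKM listed at 0 may also be a failed estimate.

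Among P450s with other symbols, Ptgis, prostacyclin synthase, rose from a median of 0.342 FPKM in WT to 4.02 in HIF2 (1.33, SE 0.31, limma adjusted p = 0.00449), and Cyp51, the lanosterol demethylase, did not pass at 53.5 and 48.2 (limma adjusted p = 0.629). Ptgis entered the test only through HIF2, with means of 0.466 FPKM in WT and 3.16 in HIF2, so its call supports nothing further. Ptgis is expressed by smooth muscle and endothelium, whose markers were higher in HIF2 for 9 of 10 and 5 of 5 tested genes, beside 11.0% of all genes tested. Of these markers, Lmod1, Cdh5 and Vwf also entered the test only through HIF2. The part of these cells in the rise of Ptgis was not tested. None of the 9 tested electron donor genes passed, and their median log2 difference was 0.01. Por, the P450 reductase, was 22.2, 30.7 and 40.2 FPKM in WT and 20.5, 25.8 and 35.2 in HIF2 (-0.21, SE 0.12, limma adjusted p = 0.24). Of 3 tested epoxide hydrolase genes, Ephx4 fell from a median of 2.76 to 0.973 FPKM (-0.82, SE 0.23, limma adjusted p = 0.0164), beside 11.1% lower of all genes tested. Ephx1 and Ephx2 did not pass (limma adjusted p = 0.606 and 0.102).

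Of 18 nuclear receptor and partner genes tested, 7 fell and 1, Rarb, rose, beside 11.1% and 11.0% of all genes tested. The list was chosen with earlier results of these data known, and its median log2 difference was -0.23. Vdr, the vitamin D receptor, was 46.8, 69.0 and 74.7 FPKM in WT and 14.6, 41.3 and 53.9 in HIF2 (-0.74, SE 0.19, limma adjusted p = 0.0084). Ppard, a fatty acid receptor gene, had medians of 26.5 and 15.3 (-0.78, SE 0.14, limma adjusted p = 0.000769), Hnf4g of 19.6 and 9.52 (-0.83, SE 0.22, limma adjusted p = 0.0103), and the coactivator gene Ppargc1a of 13.8 and 9.51 (-0.58, SE 0.19, limma adjusted p = 0.0371). The xenobiotic receptor gene Nr1i2 did not pass, at 36.7 and 35.9 FPKM (-0.05, limma adjusted p = 0.856), nor did Hnf4a, at 199 and 158 (-0.30, limma adjusted p = 0.0631). The other 3 that fell, Ppara, Rxra and Nr5a2, did so by 0.48 to 0.49 on the log2 scale.

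Other regulators of P450 genes moved both ways, with 3 of 10 tested lower and 3 higher, beside 11.1% and 11.0% of all genes tested. The list median was 0.08. Dbp and Tef, circadian activators that bind D-box elements, fell, with Dbp at 13.0, 19.0 and 20.2 FPKM in WT and 1.12, 3.99 and 9.95 in HIF2 (-1.87, SE 0.23, limma adjusted p = 2.69e-05), and Tef at medians of 36.4 and 19.8 (-0.83, limma adjusted p = 0.00985). Nfil3, a repressor acting on the same elements, rose from 0.821, 1.51 and 2.26 FPKM to 3.63, 4.88 and 19.5 (1.39, SE 0.22, limma adjusted p = 0.000369). Neither Dbp nor Nfil3 overlapped between the groups, a trait of 2.02% of all genes tested. The sources used here do not give the time of day of tissue collection. Ahr rose from a median of 5.03 to 6.39 FPKM (0.32, SE 0.10, limma adjusted p = 0.0277) and Tiparp, a target of Ahr that represses it, from 11.8 to 19.5 (0.77, SE 0.19, limma adjusted p = 0.00744), while Arnt did not pass at 9.97 and 8.72 (-0.06, limma adjusted p = 0.755). Nfe2l2, which encodes the oxidant-responsive factor, fell from a median of 91.0 to 71.7 (-0.41, limma adjusted p = 0.00423).

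Some markers of other cells and gut positions differed between the groups and others did not. Their counts stand beside 11.1% lower and 11.0% higher of all genes tested. Summed fibroblast markers ranged from 30.4 to 218 FPKM in WT and from 109 to 871 in HIF2, with all 7 higher, as were 5 of 5 macrophage markers. Epithelial markers ranged from 5470 to 7930 FPKM in WT and 5440 to 9210 in HIF2, and 3 of 8, Cdh1, Cldn7 and Vil1, were lower. Absorptive colonocyte markers, summed to 6720 to 11200 FPKM in WT and 3670 to 9420 in HIF2, had 4 of 7 lower (Car4, Slc26a3, Krt20 and Slc5a8), and small intestinal markers, summed to 303 to 496 and 61.2 to 242 FPKM, had 4 of 6 lower (Sis, Lct, Fabp6 and Fabp2). Adipocyte markers had 0 of 4 called, distal colon markers 0 of 2 and Y-linked genes 0 of 4. Hepatocyte markers summed to 18.9 to 44.5 FPKM in WT and 11.8 to 54.1 in HIF2, mostly Ttr and Tat at WT medians of 13.3 and 9.88. Alb was 1.19 or less in WT and reached 12.7 in HIF2, Fga and Fgb were listed at 0 in all WT libraries, and 1 of 4 tested, Tat, was lower. The part of these cells in the P450 differences was not tested. Settings with a smooth muscle or epithelial covariate describe how the values shift, and smooth muscle markers were themselves raised in HIF2 replicates 0 to 5. With the smooth muscle covariate Cyp4f14 was -1.23, Cyp3a25 -1.25, Cyp4b1 -2.77, Cyp2d26 3.39 and Cyp2s1 1.65. Under it Cyp4f13 (-0.41, limma adjusted p = 0.11), Cyp4v3 (-0.52, limma adjusted p = 0.104) and Cyp3a13 (-0.29, limma adjusted p = 0.282) did not pass, and Cyp2c55 was -1.74 (limma adjusted p = 0.0445). With the epithelial covariate 7 members were lower and 2 higher, beside 11.9% and 12.4% of all genes. There Cyp4f13 was -0.54, Cyp4v3 -0.50, Cyp3a13 -0.43 and Cyp2c55 -1.57 (limma adjusted p = 0.00821, 0.0303, 0.0268 and 0.00755). HIF2 replicate 0, whose absorptive markers averaged -1.95 against the WT mean on the log2 scale, also had the lowest values of Cyp2c68, Cyp2d12, Cyp2d13 and Cyp2f2, at 0.493, 0.34, 0.832 and 0.151 FPKM.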

How the data were processed

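The authors deposited 1 table of FPKM, 1 column per library for 18 libraries, made with the mm10 build. Cuffdiff 2.1.1, Cufflinks, TopHat2 2.0.9, TopHat, Bowtie2 2.1.0.0 and FastQC appear without roles in the submitters' processing notes. The sources used here give no annotation, strand setting or depth, and the TruSeq RNA kit v2, named in the labels' protocols, marks no strand.

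Values were analysed as log2(FPKM + 1) in limma 3.58.1 (R 4.3.3) with a trended prior, 2-sided, for the 13976 genes with a mean of at least 1 FPKM, with Benjamini-Hochberg adjustment over them at 0.05. Fold changes on this scale understate those of low genes. The procedure was tested on simulated data. Exact permutation tests ran over 48620 divisions of the libraries and were adjusted over the same genes. Named were members past the threshold or with a mean of at least 10 FPKM in either group, Ahr, Arnt, Por, Nr1i2, Hnf4a and Vdr, and listed genes past the threshold with a log2 difference of at least 0.5. Other names were chosen after their values were seen. Members and lists were chosen with earlier results of these data known. A listed regulator is not reported here and was left out of its list. Gene coordinates are 1-based, from GENCODE M21 (GRCm38), which named 90 of the 92 genes, and the 50-base words are from its transcripts. Promoters are from RefSeq. Alternatives were pseudocounts, filters, scalings, a replicate block, a robust prior, array weights, a rank test, covariates and subsets of libraries.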

Additional observations from a re-analysis of the deposited data

Results flagged for a closer look

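Of 38 groups of 9 libraries checked for a library far from the others, 3 held one, and chance gives about 1 in 20. Cyp2c68 in HIF2 replicate 0, at 0.493 FPKM, lay below the other HIF2 libraries, by 0.71 of the group's range on the log2(FPKM + 1) scale. WT replicate 3 gave the other 2, Cyp2d26 at 56.8 FPKM and Cyp4v3 at 14.9 FPKM, by 0.77 and 0.5 of the range above the other WT libraries.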

How the results depend on the processing

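The number of members lower in HIF2, 7 in the main test beside 11.1% of all genes, was 4 with a smooth muscle covariate (7.21% of all genes). It was also 4 when replicates 6 to 8 of HIF2 were set against the 8 WT libraries other than replicate 3 (10.1%). In HIF2 replicates 0 to 5 against all 9 WT libraries it was 9 (13.4%), and it was 8 with no filter (6.83%) and 8 with the Y-linked covariate (11.6%). With 1 library left out it was 5 to 7 (9.61% to 11.9%). The number higher, 2 in the main test beside 11.0%, was 4 with no filter (10.6%), 1 in HIF2 replicates 0 to 5 (12.4%) and 8 in replicates 6 to 8 (8.99%). With 1 library left out the number higher was 2 to 3 (9.54% to 11.8%). By the exact rank test the number higher was 0 after adjustment (8.78%). The same test gave Cyp2d26 an adjusted p of 0.0515 and Cyp2s1 of 0.153. In replicates 6 to 8 Cyp2d34 was 0.77 and Cyp4f16 0.65, turned from -0.03 and -0.05. The causes were not tested. The subsets of HIF2 replicates follow measured smooth muscle markers, so their counts describe the libraries and are not tests. With a replicate block the counts were 6 lower and 2 higher (9.62% and 9.70%). Same-numbered libraries correlated at -0.0333 to 0.112, and 1 of 9 pairs exceeded 0.1. A low correlation cannot exclude pairing, and the sources used here do not say whether the numbers pair the libraries. Cyp4b1 and Cyp4f14 kept their direction and call in every setting. Unknown depth limits what values near 0 can show.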
